A study of Mus musculus with 40 samples.

Results

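The miRNAs described here are the 10 listed mature products of the miR-23, miR-27 and miR-24 clusters: mmu-miR-23a-3p, mmu-miR-23b-3p, mmu-miR-23b-5p, mmu-miR-27a-3p, mmu-miR-27a-5p, mmu-miR-27b-3p, mmu-miR-27b-5p, mmu-miR-24-3p, mmu-miR-24-1-5p and mmu-miR-24-2-5p. The species prefix mmu is left out below. They were chosen by name, from 1978 mature miRNAs in the counts, and all 10 had reads in all 40 libraries and passed the filter on low counts in each comparison. Small RNA was sequenced from the hippocampal CA1 region of 40 mice, 1 library per mouse, in 4 groups that differed in age and genotype. The groups were 5 wild-type control (WT) and 9 CamKIIδC transgenic (TG) mice at 3 months of age, and 15 WT and 11 TG mice at 6 months. The paper gives other numbers of TG mice at each age than the titles do, and all deposited libraries were used by their titles. TG mice carry a transgene for the δC form of calcium/calmodulin-dependent protein kinase II and serve as a model of heart failure. All mice were of the C57Bl/6J background, WT mice were littermates, and males and females were used. The promoter of the transgene is not given in the sources used here. The genotype field of 3-month-old WT mice 1 and 2 gives TG where the title gives wild-type, and the title was used.

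A miRNA is cut from a hairpin precursor, whose ends give a 5p and a 3p strand. The strand that is kept by Argonaute is the guide, and the other strand, the passenger, is mostly degraded. Bases 2 to 8 of the guide, the seed, pair with target mRNAs, so that miRNAs with the same seed can share targets. The miR-23, miR-27 and miR-24 hairpins lie one after the other in a pair of clusters that arose by duplication, and each cluster is transcribed as a common primary RNA. These miRNAs are known from endothelial cells and blood vessels, from lipid metabolism and from muscle, and they are also found in neurons and glia.

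On mouse build GRCm38, the a cluster lies on the plus strand of chromosome 8 (chr8:84208518-84208921) and holds Mir23a, Mir27a and Mir24-2 within 404 bases. Mir24-2 overlaps an exon of the lincRNA gene Gm26532, and no gene of the annotation holds Mir23a or Mir27a. The b cluster lies on the plus strand of chromosome 13 (chr13:63300484-63301275) and holds Mir23b, Mir27b and Mir24-1 within 792 bases. It lies in the protein-coding gene 2010111I01Rik, where Mir23b is intronic and Mir27b and Mir24-1 overlap an annotated exon, and it is antisense to an intron of Fancc.

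Mature sequences of 9 of the 10 miRNAs, all but miR-23b-3p, were matched in RefSeq (GRCm38.p6). They are shown 5′ to 3′ with the seed in capitals, because the comparison of the clusters turns on how far their products share a seed and can be told apart by their reads.
miR-23a-3p: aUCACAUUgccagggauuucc
miR-27a-3p: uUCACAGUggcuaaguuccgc
miR-27b-3p: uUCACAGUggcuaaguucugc
miR-24-3p: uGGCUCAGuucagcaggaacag
miR-24-1-5p: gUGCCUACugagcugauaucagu
miR-24-2-5p: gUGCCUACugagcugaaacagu
miR-23b-5p: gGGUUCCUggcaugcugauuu
miR-27a-5p: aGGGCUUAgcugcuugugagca
miR-27b-5p: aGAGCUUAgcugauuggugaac
The guides miR-27a-3p and miR-27b-3p share the seed UCACAGU and differ by 1 substitution, C19U, with positions counted from 1 at the 5′ end. The seed of miR-23a-3p is UCACAUU and that of miR-24-3p is GGCUCAG. miR-24-1-5p and miR-24-2-5p share the seed UGCCUAC and their first 16 bases, whereas the passengers miR-27a-5p and miR-27b-5p differ by 8 substitutions, G3A among them, and have different seeds. miR-24-3p has the same sequence at both loci. It is listed on 2 precursors whose counts differ by at most 1 read in any library, so that its reads cannot be assigned to a cluster. The mismatches allowed in counting are not given in the sources used here, and whether reads of miR-27a-3p and miR-27b-3p were shared was not tested.

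Library totals, over all entries, ranged from 2656368 to 36547011 counts. The younger mice were sequenced more deeply, with a median of 22455957 counts in WT and 29499287 in TG mice. The older WT and TG mice had medians of 14908612 and 13894826 counts. A floor of 3 counts corresponded to 0.131 to 1.56 counts per 1000000 (CPM) before scaling. It covers counting error only, as reads amplified by PCR carry no molecular identifier. The neuronal miR-9-5p, miR-128-3p and miR-124-3p were at least at 52077, 82788 and 1080 CPM in every library. Marker miRNAs of several cell types also differed between the ages in TG mice, and their part in the results was not tested. In TG mice, where 15.7% of all miRNAs were called between the ages, 1 of 3 neuronal markers was called higher at 6 months (miR-128-3p, log2FC 0.73), and miR-124-3p (-0.66) and miR-9-5p (-0.17) were not called. Both oligodendrocyte markers were called lower and both choroid plexus markers higher. Of 4 endothelial and vessel wall markers 1 was called higher (miR-126a-3p, 0.73), and its other strand, miR-126a-5p (-0.33), was not called. Of 3 red cell markers 1 was higher and 1 lower, 1 of 2 heart and muscle markers was lower, and 0 of 3 markers of microglia and leukocytes passed. None of these lists had a called member between the ages in WT mice, where only 0.152% of all 660 miRNAs were called. The summed oligodendrocyte markers ranged from 1186 to 2299 CPM in 3-month-old and from 741 to 1347 CPM in 6-month-old TG mice. Those of the endothelium and vessel wall ranged from 9582 to 16931 and from 13228 to 21004 CPM, and those of the choroid plexus from 290.2 to 749 and from 638 to 1023 CPM. In bulk tissue, fewer cells of a type and less RNA per cell cannot be told apart.

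The level of each miRNA is given as CPM scaled with edgeR's TMM factors. A small RNA read covers the whole mature miRNA, so that levels were not divided by length. The 3p strands were the abundant products of all hairpins. miR-27b-3p was the highest, with a mean of 7030 CPM over the 40 libraries and rank 23 of 699 miRNAs. It was followed by miR-24-3p (2816 CPM, rank 45), miR-23b-3p (780 CPM, rank 86), miR-27a-3p (730 CPM, rank 90) and miR-23a-3p (140 CPM, rank 167). The 5p strands of mir-24 reached 135 CPM for miR-24-2-5p and 67.7 CPM for miR-24-1-5p. The passengers miR-27b-5p, miR-27a-5p and miR-23b-5p were at 16.4, 9.53 and 4.25 CPM. The order of the means differed between the ages. miR-23b-3p was above miR-27a-3p in 3-month-old TG mice (971 and 637 CPM) and below it in 6-month-old TG mice (681 and 764 CPM). miR-23a-3p was above miR-24-2-5p at 3 months (194 and 95.2 CPM) and below it at 6 months (106 and 155 CPM). The ranges of miR-23b-3p and miR-27a-3p overlapped within each group, as did those of miR-23a-3p and miR-24-2-5p. Both miRNAs of such a pair were read in the same libraries, and their order within libraries was not tested. As a share of the raw miRNA counts, without TMM scaling, the 10 miRNAs together took 1.46 ± 0.266% (SD of 5 mice) in 3-month-old WT and 1.43 ± 0.571% (SD of 9 mice) in 3-month-old TG mice. At 6 months they took 1.19 ± 0.391% (SD of 15 mice) in WT and 1.03 ± 0.319% (SD of 11 mice) in TG mice.

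**Figure D1:**
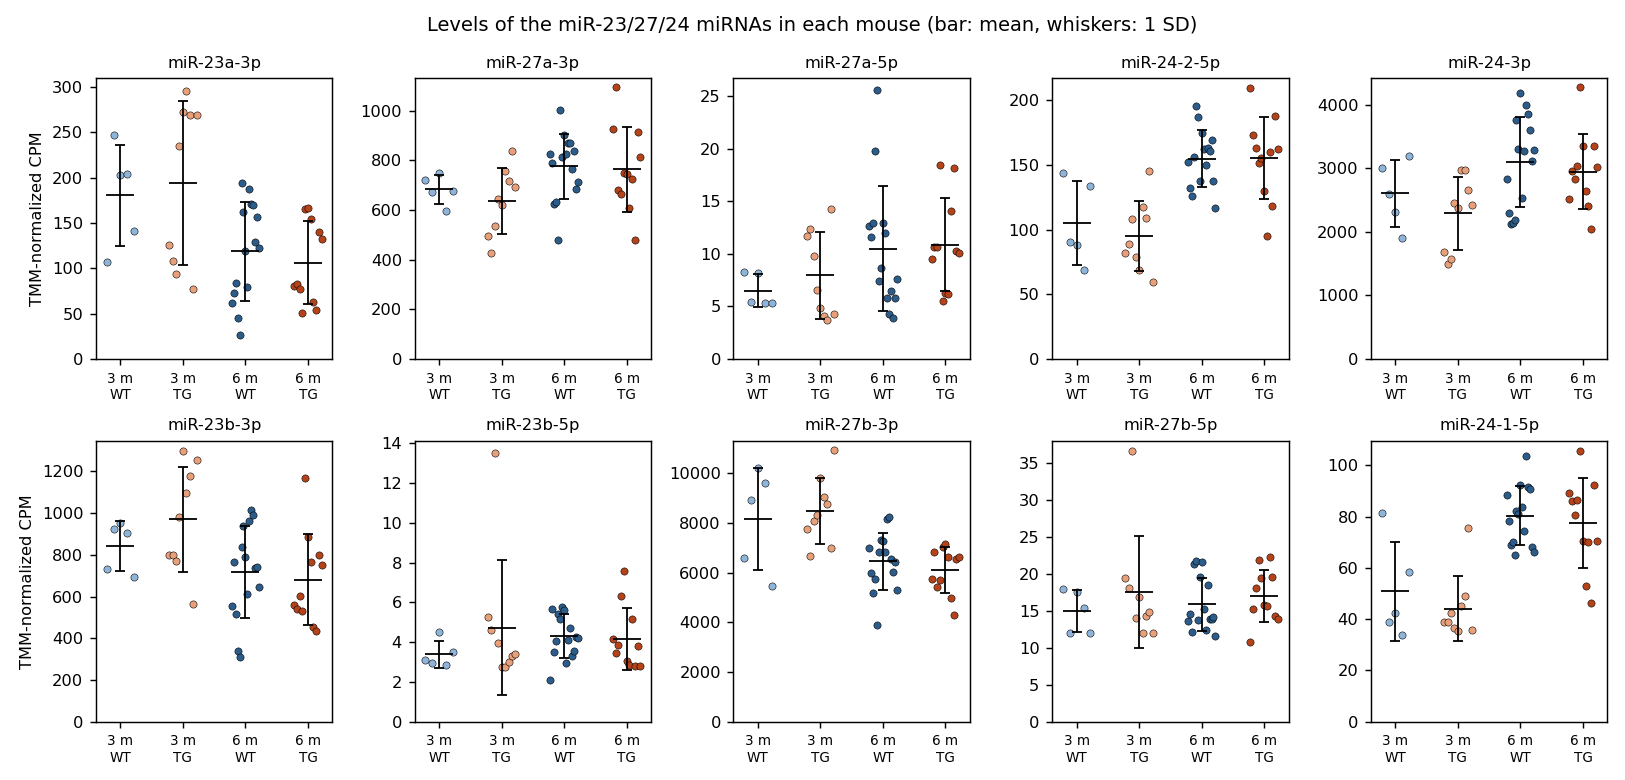
TMM-normalized CPM of the 10 miRNAs (vertical axes, from 0) in the 4 groups of mice, with 1 point per mouse, the mean as a bar and 1 SD as whiskers. The upper row holds the a cluster and miR-24-3p, the lower row the b cluster. In TG mice miR-27b-3p had a mean of 8493 CPM at 3 months and 6098 CPM at 6 months, whereas miR-24-1-5p had 44.1 and 77.4 CPM.

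The comparison of 3- and 6-month-old TG mice asked which miRNAs changed between these ages in the heart failure model. With all TG mice, the calls in each cluster went in both directions. miR-23a-3p and miR-27b-3p were called lower at 6 months, while miR-24-1-5p and miR-24-2-5p were called higher. These are 4 of the 10 miRNAs, by edgeR's quasi-likelihood test, where a call needs an adjusted p under 0.05 and a log2FC of over 0.26 in size here and below. Of all 629 miRNAs tested, 15.7% were called by the same rule. Neither decrease was called with the log2 of the library total as a covariate. Among mice in the range of library depth that both ages share, only miR-24-1-5p of these 4 was called. In that range the log2FC of miR-23a-3p was 0.43, with the same sign as that of miR-24-2-5p from its cluster. The median log2FC of the 10 was 0.13, and that of all miRNAs tested was -0.09. The p-values set the difference between the ages against the spread between mice. The main fit held no term for library depth, which differed between the ages.

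miR-23a-3p, a guide strand that has been studied in muscle and vessels, ranged from 76.8 to 296 CPM with a median of 234 CPM in 3-month-old TG mice. In 6-month-old TG mice it ranged from 50.6 to 167 CPM with a median of 83.0 CPM. All 11 of the older mice lay below the 3-month mean of 194 CPM, and 5 of the 9 younger mice lay above every older one, but the groups overlapped. The log2FC of 6 over 3 months was -0.86 (standard error 0.29, adjusted p = 0.0458, edgeR). The 3-month values fell into 2 sets that followed the depth of the libraries. The 5 mice with 29499287 to 36547011 counts were at 234 to 296 CPM, and the 4 mice with 13200774 to 25145705 counts were at 76.8 to 125 CPM. With the log2 of the library total as a covariate, an alternative added after the data were examined, the log2FC was -0.25 and was not called. Among the 4 and 6 mice whose libraries lay in the range of depth that both ages share, it was 0.43, also not called. The call was lost without 6-month-old TG mouse 1, 2, 3, 4, 8, 9 or 11 or 3-month-old TG mouse 4, 5, 6, 7 or 9, with log2FC from -0.96 to -0.76 and adjusted p from 0.0181 to 0.0987 over all 20 fits that each left out 1 mouse. It was also lost without the filter on low counts and when the counts of all precursors of a miRNA were summed.

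Its counterpart miR-23b-3p, from the b cluster, ranged from 565 to 1295 CPM with a median of 980 CPM at 3 months and from 436 to 1170 CPM with a median of 602 CPM at 6 months. Of the 11 older mice, 10 lay below the 3-month median. The log2FC was -0.50 (standard error 0.18) and did not pass the test (adjusted p = 0.0656, edgeR). It passed without 6-month-old TG mouse 5 (-0.59, adjusted p = 0.0239) and without 3-month-old TG mouse 3 or 8 (-0.54 and -0.57, adjusted p = 0.0486 and 0.0274), with 0.0239 to 0.135 over the 20 fits. With library depth as a covariate the log2FC was -0.18, and in the shared range of depth it was 0.15.

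miR-27b-3p, a guide known for targets in lipid metabolism, ranged from 6686 to 10950 CPM with a median of 8314 CPM in 3-month-old TG mice. In 6-month-old TG mice it ranged from 4297 to 7163 CPM with a median of 6540 CPM. The groups overlapped in few mice, since 7 of the 9 younger mice lay above the highest older mouse and all 11 older mice lay below the 3-month median. It was 1.38-fold lower in the older mice (log2FC -0.46, standard error 0.12, edgeR adjusted p = 0.0124) and was called in all 20 fits that left out 1 mouse. With library depth as a covariate it was -0.26 and was not called, and in the shared range of depth it was -0.08.

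miR-27a-3p, which differs from miR-27b-3p by the 1 base near its 3′ end, did not fall with it. It ranged from 429 to 836 CPM with a median of 646 CPM at 3 months and from 478 to 1097 CPM with a median of 744 CPM at 6 months. The groups overlapped widely, with 9 of the 11 older mice above the 3-month median. The log2FC was 0.28 (standard error 0.15, adjusted p = 0.208, edgeR). Because miR-27b-3p is the more abundant, both guides together were at 9129 ± 1388 CPM (SD of 9 mice) at 3 months and 6861 ± 1021 CPM (SD of 11 mice) at 6 months. As a share of raw miRNA counts they took 1.02 ± 0.394% and 0.648 ± 0.190%.

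miR-24-3p, the guide that both clusters encode, ranged from 1491 to 2977 CPM with a median of 2423 CPM at 3 months and from 2040 to 4277 CPM with a median of 2958 CPM at 6 months. Of the 11 older TG mice, 10 lay above the 3-month mean and 5 above the highest younger mouse. The log2FC of 0.38 (standard error 0.16) did not pass the test (adjusted p = 0.0985, edgeR). With library depth as a covariate it was 0.58 and in the shared range of depth 0.80, and both were called.

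The only increases called among the 10 with all TG mice were those of the 5p strands of mir-24. miR-24-1-5p, from the b cluster, ranged from 35.2 to 75.5 CPM with a median of 39.1 CPM in 3-month-old TG mice and from 46.2 to 106 CPM with a median of 80.8 CPM in 6-month-old TG mice. All 11 older mice lay above the 3-month mean and 7 of the 9 younger mice lay below every older one, while mouse 8, at 75.5 CPM, stood apart from the other younger mice. The log2FC was 0.83 (standard error 0.17, adjusted p = 0.00211, edgeR), or 1.78-fold higher.

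miR-24-2-5p, from the a cluster, ranged from 59.7 to 145 CPM with a median of 88.9 CPM at 3 months and from 94.9 to 209 CPM with a median of 160 CPM at 6 months. Of the 11 older mice, 8 lay above the highest younger one. The log2FC was 0.72 (standard error 0.17, adjusted p = 0.00676, edgeR), or 1.65-fold higher. Both 5p strands were called in all 20 fits that left out 1 mouse and with library depth as a covariate, where the log2FC was 0.85 for miR-24-1-5p and 0.66 for miR-24-2-5p. In the shared range of depth the values were 0.74 and 0.59, and miR-24-1-5p was called but miR-24-2-5p was not. As they share a seed, their summed level was also taken, which was 139 ± 38.5 CPM (SD of 9 mice) in the younger and 232 ± 46.0 CPM (SD of 11 mice) in the older TG mice.

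The passengers of mir-23b, mir-27a and mir-27b did not pass the test. The log2FC was -0.11 (standard error 0.29) for miR-23b-5p, 0.46 (standard error 0.30) for miR-27a-5p and -0.02 (standard error 0.20) for miR-27b-5p. The lowest count of miR-23b-5p in a library was 4 reads. TG mouse 3 at 3 months stood apart for miR-23b-5p, with 13.5 CPM against 2.75 to 5.26 CPM in the other mice, and for miR-27b-5p, with 36.6 CPM against 12.0 to 19.4 CPM.

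**Figure D2:**
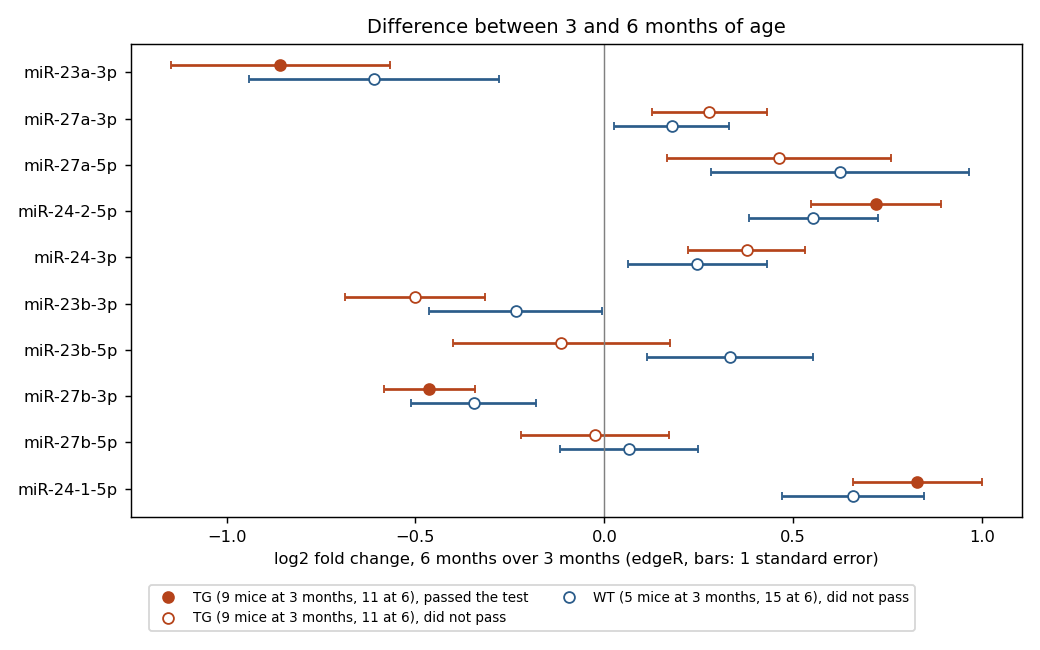
Log2 fold change of each miRNA at 6 over 3 months (horizontal axis) in TG mice and in WT mice, with 1 standard error as bars, ordered along the clusters. Filled points passed the test and open points did not. In TG mice the values ran from -0.86 for miR-23a-3p to 0.83 for miR-24-1-5p, and in WT mice from -0.61 to 0.66 for the same miRNAs.

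In WT mice of 3 and 6 months, edgeR called 0 of the 10 miRNAs, against 0.152% of 660 miRNAs tested. An unadjusted p under 0.05 was found for 3 of the 10, against 15.5% of all 660. DESeq2 called 2 of the 10, miR-24-1-5p and miR-24-2-5p, against 3.79% of all 660. The signs were those seen in TG mice for all guides and for the 5p strands of mir-24. miR-24-1-5p was at 81.3, 38.8, 42.3, 33.8 and 58.5 CPM in the 5 younger mice and ranged from 65.1 to 104 CPM with a median of 81.1 CPM in the 15 older ones. Mouse 1 was the highest of the younger mice, and 4 of the 5 younger mice lay below every older one. The log2FC of 0.66 (standard error 0.19) did not pass the test (adjusted p = 0.179, edgeR). Without 3-month-old WT mouse 1 it was 0.87 and was called (adjusted p = 0.0220, with 0.0220 to 0.617 over the 20 fits).

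miR-24-2-5p was at 144, 90.2, 88.1, 68.5 and 134 CPM in the younger WT mice and from 116 to 195 CPM, with a median of 156 CPM, in the older ones. Younger mice 1 and 5 lay within the range of the older mice, and the other 3 lay below it. The log2FC was 0.55 (standard error 0.17, adjusted p = 0.179, edgeR).

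miR-27b-3p was at 6579, 8934, 10209, 9627 and 5460 CPM in the younger WT mice and from 3883 to 8233 CPM, with a median of 6574 CPM, in the older ones. Mice 2, 3 and 4 lay above every older mouse, and mice 1 and 5 did not. The log2FC was -0.35 (standard error 0.16, adjusted p = 0.321, edgeR). For miR-23a-3p, the younger mice were at 107, 247, 203, 204 and 141 CPM and the older ones from 26.3 to 194 CPM with a median of 123 CPM. Mice 2, 3 and 4 again lay above every older mouse. The log2FC of -0.61 (standard error 0.33) did not pass the test (adjusted p = 0.375, edgeR) and became -0.12 with library depth as a covariate. Younger WT mice 1 and 5, the lowest in both guides and the highest in both 5p strands of mir-24, also had the smallest libraries of their group, with 12006095 and 14052092 counts.

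Whether the change with age differed between genotypes was tested by the interaction of age and genotype. None of the 10 miRNAs was called (0% of 699 miRNAs tested), with 0 at an unadjusted p under 0.05, 0 by DESeq2 and a smallest adjusted p of 0.986 (edgeR). The interaction was 0.15 for miR-24-1-5p, with a 95% interval from -0.31 to 0.62, and -0.14 for miR-27b-3p, with an interval from -0.52 to 0.24. These intervals are wide beside the changes of 0.83 and -0.46 in TG mice, so that a call in TG mice alone does not show that the genotypes differed.

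Between TG and WT mice of the same age, the question was whether the heart failure model alters these miRNAs. edgeR called 0 of the 10 at 3 months and 0 at 6 months, against 0% of 695 and 0% of 612 miRNAs tested. None had an unadjusted p under 0.05 at either age, and DESeq2 also called 0. At 3 months the log2FC of TG over WT ranged from -0.25 for miR-24-1-5p to 0.36 for miR-23b-5p. At 6 months, with more mice, it ranged from -0.17 for miR-23a-3p to 0.09 for miR-27b-5p. The 95% interval at 6 months was from -0.30 to 0.11 for miR-27b-3p and from -0.30 to 0.16 for miR-24-1-5p.

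To contrast the a and b clusters, the counts of paired miRNAs were compared within each library, which needs no scaling between libraries. Of 4 such pairs, 1 was called altered between the ages in TG mice by limma, against 13.3% of 256 pairs of related miRNAs. This was the pair of miR-27 guides. In 3-month-old TG mice there were 63.1 to 120 reads of miR-27a-3p for 1000 of miR-27b-3p, with a median of 66.0. In 6-month-old TG mice there were 91.6 to 160, with a median of 123. All 11 older mice lay above the mean of the younger ones, and 6 above the highest of them, which was mouse 8. The log2 ratio rose by 0.74 (standard error 0.13, adjusted p = 0.00121, limma), and it was called in all 20 fits that left out 1 mouse and with library depth as a covariate (0.69).

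In WT mice the same ratio was 110, 75.2, 73.4, 62.0 and 124 reads for 1000 in the 5 younger mice and 106 to 147, with a median of 120, in the 15 older ones. Mice 1 and 5 were within the range of the older mice and the other 3 were below it. The difference of 0.49 on the log2 scale had an unadjusted p of 0.0009 and did not pass the test (adjusted p = 0.189, limma), and limma called 0% of 297 pairs. Of the 4 pairs, 2 had an unadjusted p under 0.05, against 15.2% of all 297. Without 3-month-old WT mouse 5 it was 0.62 and was called (adjusted p = 0.0109, with 0.0109 to 0.676 over the 20 fits). The interaction for this ratio was 0.25, with a 95% interval from -0.11 to 0.61, and 0% of 324 pairs were called for it.

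The other pairs did not pass the test in TG mice. The log2 ratio of miR-23a-3p to miR-23b-3p differed by -0.30 (standard error 0.16), that of miR-27a-5p to miR-27b-5p by 0.51 (standard error 0.27) and that of miR-24-1-5p to miR-24-2-5p by 0.09 (standard error 0.10). The 95% interval of the last was from -0.10 to 0.28, so that the 5p strands of mir-24 from the 2 loci rose without a detectable difference between them. For 1000 reads of miR-23b-3p there were 190 ± 53.8 of miR-23a-3p (SD of 9 mice) in the younger and 152 ± 31.3 (SD of 11 mice) in the older TG mice. Between genotypes, limma called 0% of 335 pairs at 3 months and 0% of 248 at 6 months, and 0 of the 4 pairs had an unadjusted p under 0.05 at either age.

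Hairpins next to each other in a cluster were then compared within each library, by the most abundant strand found on that hairpin alone. For mir-24 this is the 5p strand, since miR-24-3p comes from both loci. This comparison was added after the data were examined. Its ratios use the same counts as the levels given above and are not separate evidence. In TG mice 3 of the 4 ratios were called by limma, against 24.1% of 83 ratios of neighbours. In the b cluster, the log2 ratio of miR-27b-3p to miR-24-1-5p ranged from 6.53 to 8.26 with a median of 7.64 at 3 months and from 6.02 to 6.97 with a median of 6.15 at 6 months. All 11 older mice lay below the mean of the younger ones and 7 below every one of them. The ratio fell by 1.29 on the log2 scale (standard error 0.19, adjusted p = 0.000105, limma), or 2.45-fold, although both miRNAs come from hairpins of the same cluster. This fall combines the log2FC of -0.46 for miR-27b-3p and 0.83 for miR-24-1-5p, both called above. The ratio fell by 1.14 with library depth as a covariate and was called there too. The ratio of miR-23b-3p to miR-27b-3p, the pair that precedes it, differed by -0.05 (standard error 0.14).

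In the a cluster, the log2 ratio of miR-23a-3p to miR-27a-3p ranged from -3.44 to -1.19 with a median of -1.46 at 3 months and from -3.72 to -1.98 with a median of -3.12 at 6 months. All 11 older mice lay below the mean of the younger ones, but 3-month-old mouse 8, at -3.44, lay below the median of the older mice. The ratio fell by 1.09 (standard error 0.30, adjusted p = 0.0108, limma) and was not called with library depth as a covariate, where it was -0.70. The ratio of miR-27a-3p to miR-24-2-5p fell by 0.47 (standard error 0.16, adjusted p = 0.0448, limma). This call was lost in 12 of the 20 fits that left out 1 mouse, namely 6-month-old TG mouse 1, 3, 4, 5, 8, 9 or 11 or 3-month-old TG mouse 4, 5, 6, 7 or 9, with adjusted p from 0.0236 to 0.0940 over the 20 fits, and with library depth as a covariate, where it was -0.24.

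In WT mice 1 of the 4 ratios of neighbours was called, against 4.82% of 83. The log2 ratio of miR-27b-3p to miR-24-1-5p was 6.34, 7.85, 7.91, 8.15 and 6.54 in the younger WT mice and from 5.89 to 6.78, with a median of 6.31, in the older ones. Mice 2, 3 and 4 were above all older mice and mice 1 and 5 were not. It fell by 1.04 (standard error 0.24, adjusted p = 0.0157, limma). The call was lost without 3-month-old WT mouse 2, 3 or 4, where the difference was -0.92, -0.90 and -0.84 (adjusted p = 0.0841, 0.0870 and 0.106, with 0.000972 to 0.106 over the 20 fits). The interaction of age and genotype for this ratio was -0.25, with a 95% interval from -0.84 to 0.33. For ratios of neighbours, limma called 0% of 85 for the interaction, 0% of 86 between genotypes at 3 months and 0% of 83 at 6 months, and 0 of the 4 ratios had an unadjusted p under 0.05 in any of the 3.

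**Figure D3:**
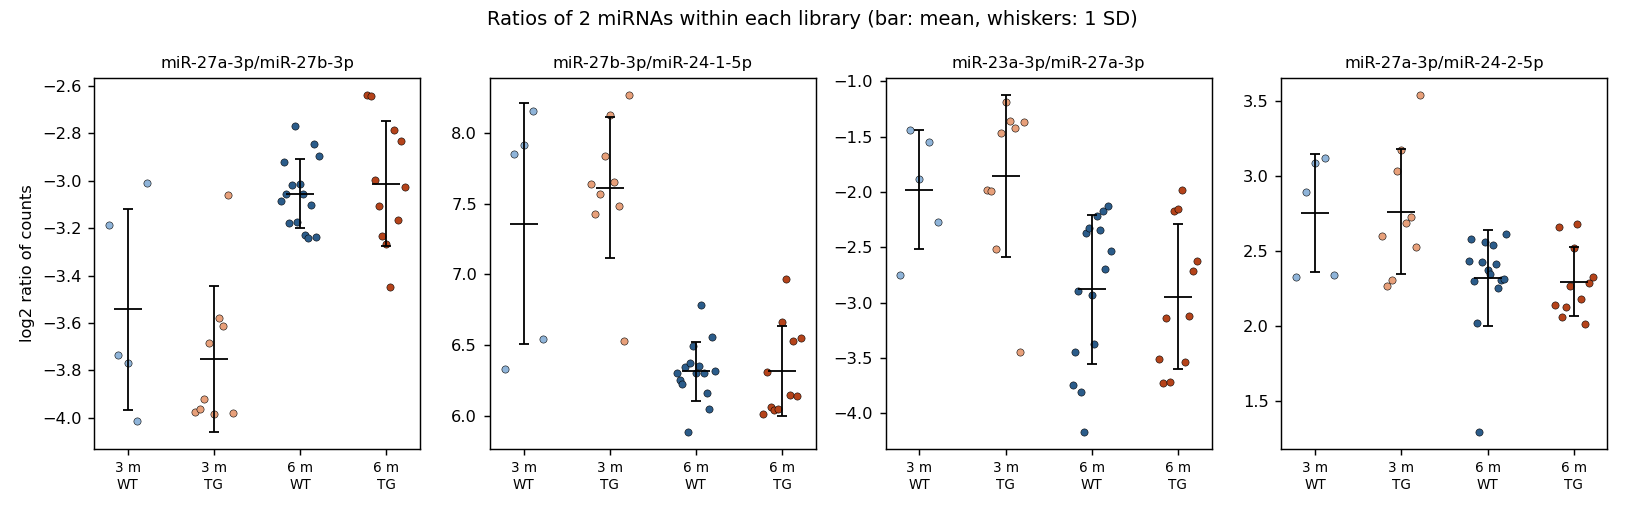
Log2 ratio of the counts of 2 miRNAs within each library (vertical axes, which do not start at 0) in the 4 groups, with 1 point per mouse, the mean as a bar and 1 SD as whiskers. The mean ratio of miR-27a-3p to miR-27b-3p was -3.75 in 3-month-old and -3.01 in 6-month-old TG mice, and the mean ratio of miR-27b-3p to miR-24-1-5p was 7.61 and 6.32.

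Guide and passenger strands of the same hairpin were compared in the same way, as the ratio of 5p to 3p counts. The 5p strand was a minor product of every hairpin. In 6-month-old WT mice it had 2.56 ± 0.972 reads for 1000 of the 3p strand at mir-27b, 6.75 ± 3.64 at mir-23b, 15.1 ± 12.6 at mir-27a, 26.8 ± 4.92 at mir-24-1 and 52.3 ± 14.4 at mir-24-2 (SD, n = 15). For mir-24, the 3p count holds the reads of both loci. The mean log2 ratio was higher at 6 than at 3 months in all 5 hairpins and in both genotypes, but limma called 0 of 5 in TG mice, against 20.3% of 232 hairpins, and 0 of 5 in WT mice, against 0% of 245. The differences ranged from 0.27 at mir-27a to 0.49 at mir-23b in TG mice and from 0.36 to 0.62 in WT mice, and the median over all hairpins was 0.20 in TG mice and 0.08 in WT mice. With library depth as a covariate the difference at mir-27a turned to -0.44 in TG mice and -0.17 in WT mice. In TG mice it was then 0.02 at mir-23b, 0.08 at mir-27b, 0.08 at mir-24-2 and 0.29 at mir-24-1, and 0 of 5 were called in either genotype.

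The smallest adjusted p among the arm ratios in TG mice was 0.0928, at mir-24-1 (log2 difference 0.43, standard error 0.18, limma), and 1 of the 5 had an unadjusted p under 0.05 in each genotype, against 32.8% of all hairpins in TG and 14.3% in WT mice. All 11 older TG mice and all 15 older WT mice lay above the 3-month mean of their genotype at this hairpin. A call appeared at mir-27b without 3-month-old TG mouse 3 (0.64, adjusted p = 0.0465, with 0.0465 to 0.320 over the 20 fits) and at mir-24-1 without 3-month-old TG mouse 8 (0.50, adjusted p = 0.0391, with 0.0391 to 0.173). Between genotypes, limma called 0% of 258 hairpins at 3 months and 0% of 230 at 6 months, and 0% of 257 for the interaction. None of the 5 hairpins had an unadjusted p under 0.05 in these 3 comparisons.

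As the younger mice had the larger libraries, the relation of each level to the log2 of the library total was fitted in edgeR over all 40 mice with the group as a term, an analysis added after the data were examined. Of all 699 miRNAs, 63.1% had a slope that passed an adjusted p of 0.05, and 7 of the 10 miRNAs described here did. The slope, the log2 change of CPM per unit of log2 library total, was 0.72 (standard error 0.10) for miR-23a-3p, 0.43 (0.07) for miR-23b-3p, 0.24 (0.05) for miR-27b-3p, 0.19 (0.07) for miR-24-3p and 0.18 (0.06) for miR-27a-3p. It was -0.61 (standard error 0.10) for miR-27a-5p and -0.26 (0.07) for miR-27b-5p. The slopes of miR-24-1-5p, miR-24-2-5p and miR-23b-5p did not pass the test, at -0.01 (standard error 0.08), -0.13 (0.07) and -0.19 (0.13). Guides were thus higher and the passengers of mir-27 lower in the deeper libraries. Within the 15 older WT mice alone, the slope was 0.83 for miR-23a-3p and -0.64 for miR-27a-5p, and both passed the test. The cause of these slopes was not tested.

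**Figure D4:**
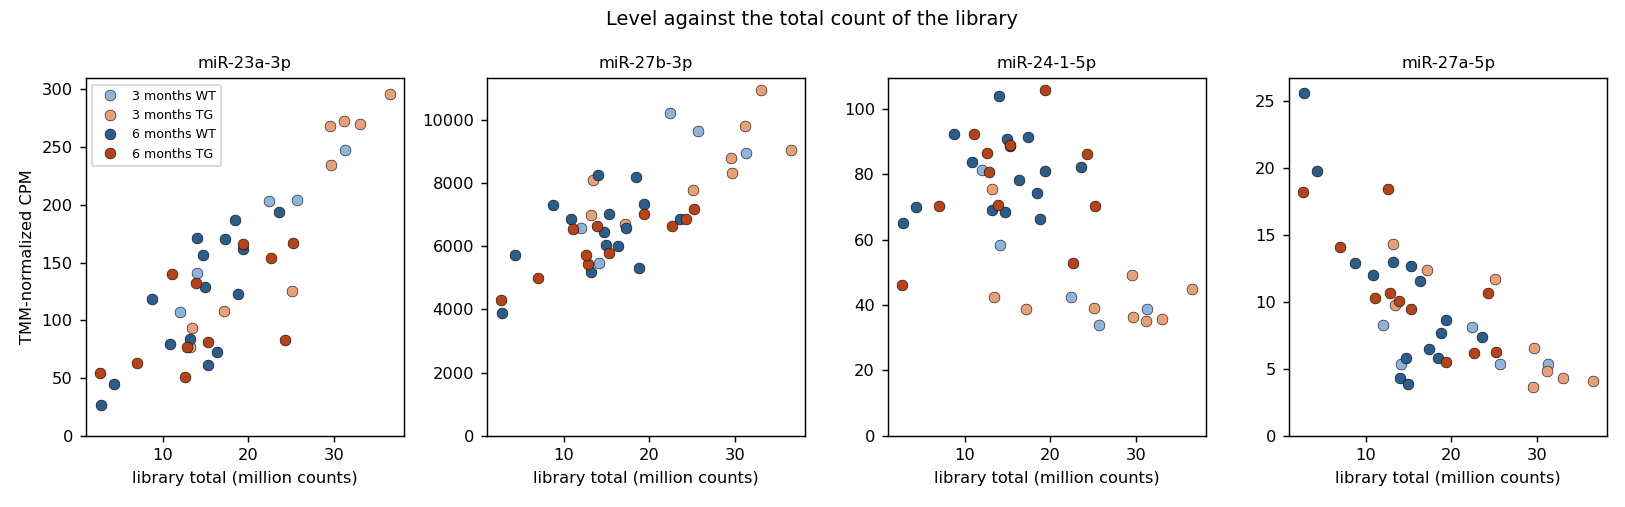
TMM-normalized CPM of 4 of the miRNAs (vertical axes) against the total count of the library in units of 1000000 (horizontal axes), with 1 point per mouse and the groups in colour. The level of miR-23a-3p was higher and that of miR-27a-5p lower in deeper libraries, with slopes of 0.72 and -0.61, whereas the slope of miR-24-1-5p, which was called between the ages in TG mice but not in WT mice, was -0.01.

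**Figure D5:**
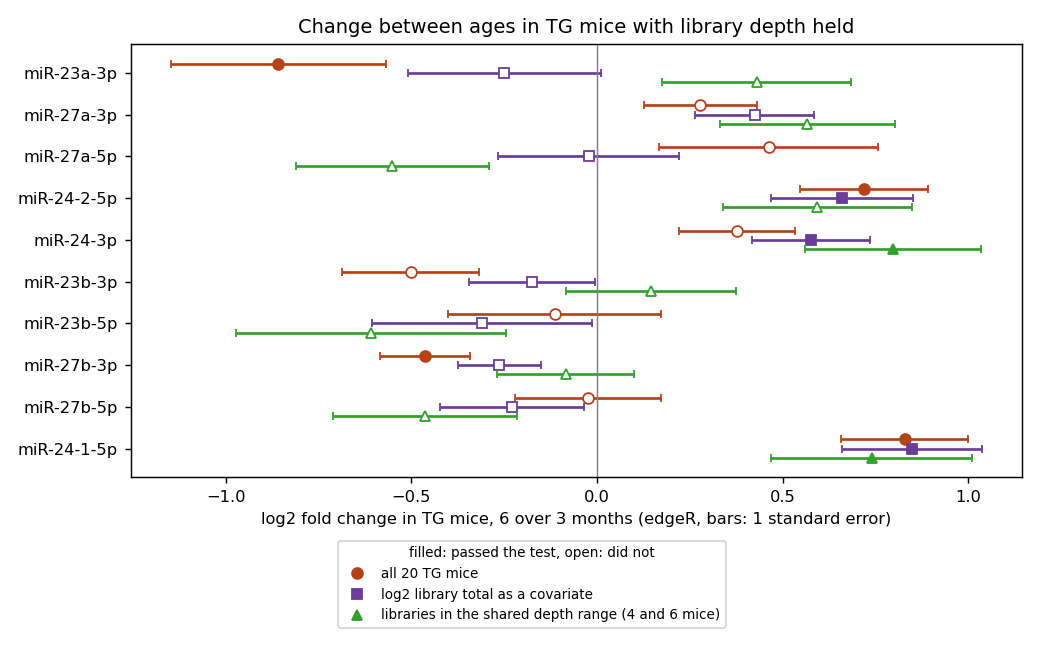
Log2 fold change of each miRNA between 3 and 6 months in TG mice (horizontal axis, with 1 standard error as bars) from all mice, with log2 library total as a covariate and among mice in the shared range of depth. miR-24-1-5p stayed at 0.83, 0.85 and 0.74, whereas miR-23a-3p went from -0.86 to -0.25 and 0.43.

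Levels that varied together from mouse to mouse were described by Spearman's rho of log2 CPM, centred on the group mean, over the 40 libraries. The libraries share a depth that is related to many levels, as given above, and no test was made. Between the guides of the 2 clusters, rho was 0.908 for miR-23a-3p and miR-23b-3p and 0.459 for miR-27a-3p and miR-27b-3p, and it was 0.752 for miR-24-1-5p and miR-24-2-5p. Whether reads shared between such counterparts raised these values was not tested. Neighbours in a cluster varied less alike than miR-23a-3p and miR-23b-3p, with 0.400 for miR-23a-3p and miR-27a-3p, 0.482 for miR-27a-3p and miR-24-2-5p, 0.746 for miR-23b-3p and miR-27b-3p and -0.014 for miR-27b-3p and miR-24-1-5p. The guide miR-27a-3p and its passenger had a rho of -0.352.

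Among 353 other miRNAs of at least 10 CPM, those most like miR-23a-3p were miR-20a-5p and miR-30b-5p (both 0.932), and those most like miR-23b-3p were miR-365-3p (0.935) and miR-664-3p (0.934). The level of miR-24-3p was most like that of miR-140-5p (0.922) and miR-138-5p (0.841). For miR-27b-3p they were miR-329-3p (0.749) and miR-365-3p (0.734), and for miR-27a-3p let-7a-1-3p and let-7c-2-3p (both 0.764), whose counts are nearly the same and may come from shared reads.

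The remaining products of these hairpins and of the strand opposite to them had few reads. miR-23a-5p, the passenger of mir-23a, had 27 reads in all, in 15 of the 40 libraries. The complement of miR-24-3p overlaps miR-3074-5p, a miRNA of the opposite strand, by 20 bases, and miR-3074-5p had reads in all 40 libraries, 879 in total with a mean of 1.64 CPM, against 1459604 reads of miR-24-3p. miR-3074-1-3p had 96 reads and miR-3074-2-3p had 0.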

How the data were processed

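Small RNA libraries of 40 mice were analysed. The authors processed reads with bcl2fastq (2.20.2), FastQC (0.11.5) and cutadapt (2.8 in the submitters' processing notes, another version in the paper), counted them with mirdeep2 and deposited the raw counts, with 1 entry for a mature miRNA on each of its precursors. The mismatches allowed are not given in the sources used here. Reads of miR-27a-3p and miR-27b-3p, or of miR-23a-3p and miR-23b-3p, may thus be shared in part. Normalized values were also deposited and were not used. Each miRNA was taken from the precursor with the highest total, and the 52 spike-in entries were left out of the tests.

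Each comparison was fitted on its groups with edgeR (4.0.16, R 4.3.3): filterByExpr (minimum count 10, minimum total 15), TMM, the robust quasi-likelihood F test and Benjamini-Hochberg adjustment over all miRNAs tested. The thresholds on adjusted p (0.05) and log2FC (0.26) follow the paper. Ratios within a library were tested with limma (3.58.1) on log2 counts plus 0.5, over all hairpins or pairs of the table, where related miRNAs share a number and arm, and neighbours lie at most 10000 bases apart. Alternatives were DESeq2 (1.42.0) without and with RUVr factors (computed from their definition), RLE normalization, no low-count filter, summed precursors, the replicate number as a block, each mouse left out and the other genotype of 3-month-old WT mice 1 and 2. Library depth, neighbour ratios and interactions of ratios were added after the data were examined. The fits were tested on simulated data. Totals ranged from 2656368 to 36547011 counts.

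The miRNAs named are the 10 chosen, the other products of these hairpins, the 2 miRNAs most like each guide and lists of cell type markers. Members and lists were chosen with earlier results of these data known.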

Additional observations from a re-analysis of the deposited data

Results flagged for a closer look

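Single mice that stood far from the others of their group were found by Dixon's test in 6 of the 46 groups of levels and ratios tested. Only the groups of 3-month-old mice were tested, and those of 6-month-old mice were not. Chance flags about 1 in 20 groups, but levels and ratios that share counts are not independent of each other. The 3-month-old TG mouse 3 had 13.5 CPM of miR-23b-5p, against 5.26 CPM in the next mouse, and 36.6 CPM of miR-27b-5p, against 19.4 CPM. The 3-month-old TG mouse 8 had 75.5 CPM of miR-24-1-5p, against 49.1 CPM in the next mouse. In the same mouse the log2 ratio of miR-27a-3p to miR-27b-3p was -3.06, against -3.58, and that of miR-27b-3p to miR-24-1-5p was 6.53, against 7.43. Its library, with 13200774 counts, was the smallest of its group. In 3-month-old WT mouse 4 the log2 ratio of miR-27a-5p to miR-27b-5p was -1.52, against -1.17 in the next mouse. No cause was tested for these values.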

How the results depend on the processing

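Across the planned and added settings, the values of single miRNAs and ratios kept their side of the threshold, or moved by less than 1 SD, in 888 cases, passed it anew in 30, lost it in 26 and reversed in 3. The 888 include 75 values that were called in neither setting and changed sign. Leaving out 1 mouse kept the side of the threshold in 1921 cases, with 7 that passed it and 27 that lost it. The 1921 include 109 that changed sign. As counts scaled by the whole library, 27 of the 40 group means of the 10 miRNAs moved by more than 1 SD. That total counts a miRNA once for each of its precursors and is thus larger than the miRNA counts. In 6-month-old TG mouse 1 it was 15294683 against 10497549, so that part of the move is built into the scale.

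In TG mice, 99 miRNAs and 4 of the 10 described were called between the ages. DESeq2 with 1 or 2 RUVr factors called 305 or 322 miRNAs and 7 of the 10 in both cases. In the shared range of library depth 219 miRNAs and 2 of the 10 were called, and miR-23a-3p reversed to 0.43. In WT mice, 1 miRNA and 0 of the 10 were called. DESeq2 called 25 miRNAs and 2 of the 10 without factors, 191 and 5 with 1 factor, and 210 and 5 with 2 factors, whereas a depth covariate or the shared range of depth gave 0 miRNAs. Between genotypes, 1 and 2 RUVr factors gave 1 and 53 miRNAs at 3 months and 4 and 8 at 6 months, and 2 factors gave 3 for the interaction, none of them among the 10. The cause of these shifts was not tested.

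For ratios in TG mice, arm ratios called were 47 of 232. They were 26 of 687 without the low-count filter and 29 of 232 with a depth covariate. Ratios of related miRNAs were 34 of 256, but 5 of 702 and 8 of 256 in the same settings. Of the 4 ratios of neighbours described, 1 was called with a depth covariate. In WT mice, 4 of 83 ratios of neighbours were called, but 2 of 118 without the low-count filter. With 3-month-old WT mice 1 and 2 left out or counted as TG, 2 of 83 were called.

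Replicate numbers recur in the groups, but same-numbered mice did not deviate together in every pair. Between the ages, 7 of 9 pairs of TG mice had a correlation over 0.1 (mean 0.226, lowest -0.52) and 2 of 5 pairs of WT mice (mean 0.035, lowest -0.47). Between genotypes it was 2 of 5 pairs at 3 months (mean 0.0068, lowest -0.67) and 9 of 11 at 6 months (mean 0.259, lowest -0.56). Only 1 to 3 mice of a group correlated best with the mouse of the same number. With the replicate block, a mouse whose number is found at only 1 age adds nothing to the comparison of the ages. That comparison rests on the 9 pairs of TG and 5 pairs of WT mice, and older WT mice 6 to 15 drop out. The 5 older WT mice that remain include the smallest libraries of their group, mice 4 and 5 (4238710 and 2816478 counts). Calls with the block are thus not calls from all mice. In TG mice, 124 of 629 miRNAs and 5 of the 10 were called with the block. In WT mice the replicate block gave 250 of 660 miRNAs and 3 of the 10, and 69 of 245 arm ratios and 1 of the 5 described. It gave 2 of 297 ratios of related miRNAs and 1 of the 4, and 35 of 83 ratios of neighbours and 2 of the 4.

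The slope on library depth passed for 441 of 699 miRNAs over all mice. Within 3-month-old mice alone it passed for 1 of 582 in WT and 283 of 550 in TG mice. Within 6-month-old mice alone it passed for 252 of 468 in WT and 113 of 455 in TG mice. Of the 10, it passed for 0 in 3-month-old WT and 2 in 6-month-old TG mice. In 3-month-old WT mice alone the slopes of miR-24-3p and miR-27a-3p reversed to -0.29 and -0.027.

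When each mouse was left out in turn, the counts called ranged from 0 to 4 miRNAs and from 0 to 1 of the 10 between the ages in WT mice, and from 0 to 1 of the 5 arm ratios in TG mice. In WT mice they ranged from 0 to 1 of all arm ratios, from 0 to 1 of the ratios of related miRNAs and of the 4 described, and from 0 to 7 of the ratios of neighbours and 0 to 1 of the 4. The small number of younger WT mice limits the precision. Sequence-dependent capture of small RNAs was not tested, so that levels of different miRNAs compare reads, not molecules.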
